A study of Mus musculus with 8 samples.

Results

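The keratin genes of the mouse epidermis were examined for peaks of MOF, Rfx2, H3K4me3 and H3K27ac. Members were all protein-coding genes in the RefSeq annotation of GRCm38.p6 (mm10) whose symbol is Krt followed by a number and an optional letter, with keratin-associated (Krtap) genes left out. This gave 53 of 21000 protein-coding genes with a curated transcript: 27 on chromosome 11 and 26 on chromosome 15. All samples came from total epidermis of the back skin of wild-type mice at postnatal day 0.5, separated from the dermis with dispase, so no sample carried an allele or a treatment. The labels list 8 samples for 6 antibodies, and 4 peak lists were analysed: MOF from ChIPseq on fixed cells, and Rfx2, H3K4me3 and H3K27ac from Cut&Run, in which a nuclease is tethered to the antibody. The labels give a further library each for H3K4me3 and H3K27ac, but 1 list per antibody was analysed, so no replicate lists were compared. The values below therefore describe single libraries, and the intervals cover counting error over genes or peaks only and treat neighbouring genes as independent. The H3K4me3 list was attached by the labels to the repeat library, but it lacks the repeat mark in its name.

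Keratins form the intermediate filaments of epithelial cells. Each filament is built from pairs of an acidic type I and a basic type II chain, and the partners of a pair are made together: Krt5 with Krt14 in the basal layer, Krt1 with Krt10 in the suprabasal layers, and Krt8 with Krt18 in simple epithelia. Type I genes lie on chromosome 11 and type II genes on chromosome 15, except Krt18, a type I gene at the end of the chromosome 15 cluster. H3K4me3 is found at active promoters, H3K27ac at active promoters and enhancers, MOF acetylates lysine 16 of histone H4, and Rfx2 is a transcription factor of ciliary genes.

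The chromosome 11 cluster spanned 1.04 Mb (chr11:99232761-100269951), with all 27 keratin genes on the minus strand and 23 Krtap genes between Krt40 and Krt33a. The chromosome 15 cluster spanned 0.684 Mb (chr15:101348315-102032026), with 22 genes on the minus strand and 4 on the plus strand (Krt7, Krt88, Krt86 and Krt18). To show what kind of sequence these starts have, the promoters of the basal partners Krt5 and Krt14 and of the suprabasal Krt10 are given here from RefSeq. Each runs 5′ to 3′ on the minus strand and ends 25 bases into the transcript. Capitals mark matches to the motifs searched below. The Krt5 and Krt14 stretches lie at promoters with H3K4me3, and the Krt14 stretch (the upstream of its 2 curated starts) lies wholly inside a MOF peak, whereas the Krt10 stretch lies outside every peak of the 4 lists. The positions are chr15:101712881-101713155 for Krt5, chr11:100207486-100207760 for Krt14 and chr11:99389340-99389614 for Krt10.
Krt5: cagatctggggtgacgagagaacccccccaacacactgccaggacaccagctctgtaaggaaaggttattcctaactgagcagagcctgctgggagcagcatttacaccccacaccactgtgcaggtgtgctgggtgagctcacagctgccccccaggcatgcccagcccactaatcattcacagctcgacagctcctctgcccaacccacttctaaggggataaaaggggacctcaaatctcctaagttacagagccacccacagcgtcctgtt
Krt14: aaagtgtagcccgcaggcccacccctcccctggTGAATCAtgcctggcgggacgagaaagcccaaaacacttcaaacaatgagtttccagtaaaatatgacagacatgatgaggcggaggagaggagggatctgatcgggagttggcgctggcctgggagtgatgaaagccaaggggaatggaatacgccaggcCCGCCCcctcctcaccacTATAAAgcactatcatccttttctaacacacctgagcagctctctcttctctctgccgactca
Krt10: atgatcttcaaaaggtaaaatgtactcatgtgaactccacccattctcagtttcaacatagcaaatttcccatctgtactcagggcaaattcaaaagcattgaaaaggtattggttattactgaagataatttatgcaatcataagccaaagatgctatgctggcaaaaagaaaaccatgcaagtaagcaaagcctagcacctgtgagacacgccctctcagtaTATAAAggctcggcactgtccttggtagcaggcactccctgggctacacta

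A TATAAA stood at −38 to −33 of the Krt14 start and at −26 to −21 of the Krt10 start, and the Krt14 stretch also held an AP-1 match (TGANTCA) at −217 to −211 and an Sp1 match (GGGCGG, here on the other strand) at −56 to −51. None of the motifs searched was found in the Krt5 stretch.

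At the promoter, taken as 1 kb upstream to 100 bp downstream of a transcription start site (TSS), most keratin genes had no peak of any list. An H3K4me3 peak was present at 8 of 53 keratin promoters (15.1%, exact 95% interval 6.75 to 27.6%), against 60.6% of all protein-coding genes. The 8 genes were Krt14, Krt15, Krt16, Krt17 and Krt222 on chromosome 11 and Krt5, Krt79 and Krt80 on chromosome 15. With the 50% of H3K4me3 peaks of highest significance, 4 of these were left (7.55%, 2.09 to 18.2%; all genes 51.3%), without Krt16, Krt79, Krt80 and Krt222. An H3K27ac peak was present at 5 promoters (9.43%, 3.13 to 20.7%; all genes 50%), those of Krt14, Krt15, Krt16, Krt17 and Krt80, which all had H3K4me3 too (both marks at 49.1% of all genes). A MOF peak was present at 4 (7.55%, 2.09 to 18.2%; all genes 26.6%), those of Krt14, Krt80, Krt83 and Krt86. No keratin promoter had an Rfx2 peak (0 of 53, which allows a share of up to 6.72%; all genes 1.41%). H3K4me3, H3K27ac and MOF were present together at the promoters of Krt14 and Krt80 (3.77%; all genes 24%), and 43 promoters had no peak of any list (81.1%, 68 to 90.6%; all genes 37.7%). In total epidermis a mark that is absent and a mark carried by few cells cannot be told apart.

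**Figure D1:**
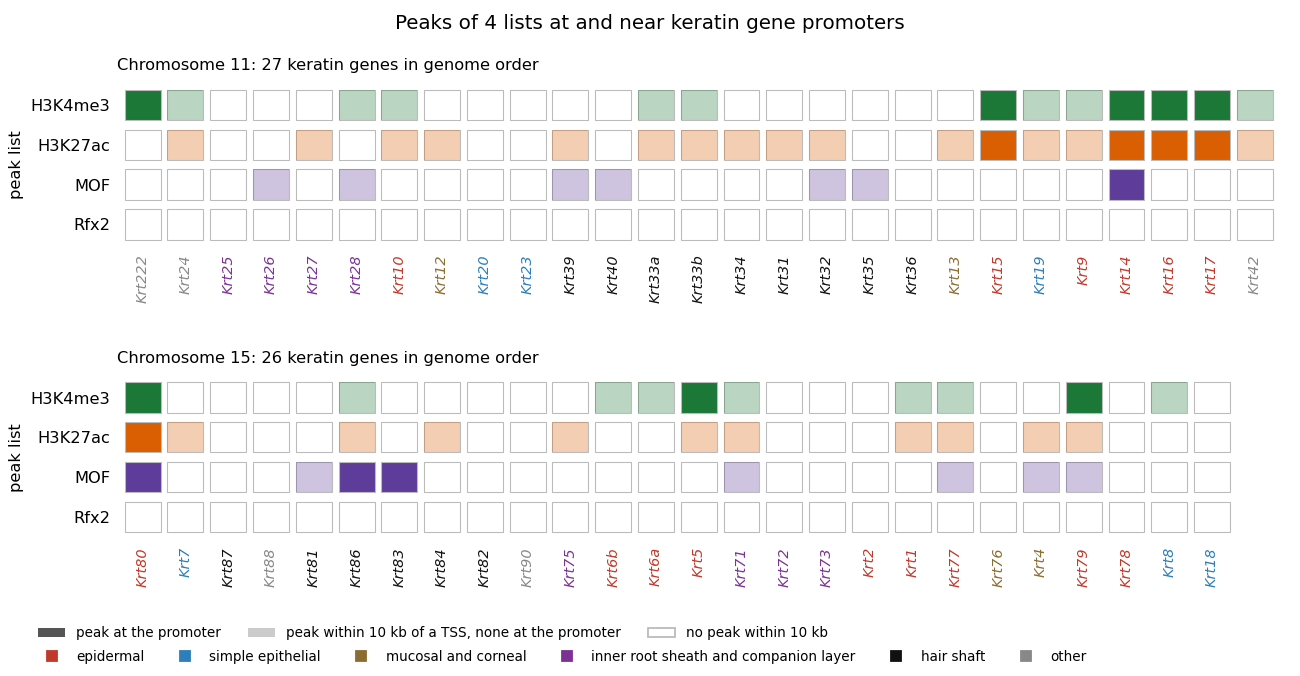
Each column is a keratin gene in genome order (upper panel chromosome 11, lower panel chromosome 15) and each row a peak list. Full colour marks a peak at the promoter, pale colour a peak within 10 kb of a TSS but not at the promoter, and white no peak within 10 kb, with gene names coloured by role. Full colour appears at 8 genes for H3K4me3, 5 for H3K27ac, 4 for MOF and 0 for Rfx2.

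The epidermal keratins held nearly all promoters with marks. Of 15 epidermal keratin genes, 7 had H3K4me3 at the promoter (46.7%, 21.3 to 73.4%; all genes 60.6%) and 5 had H3K27ac (33.3%, 11.8 to 61.6%; all genes 50%), so both intervals held the share of all genes. Where the centre of the peak had to lie in the promoter, H3K4me3 was left at 3 of the 15 epidermal genes (Krt14, Krt16 and Krt80; all genes 27.3%). Krt14 was left only through the downstream of its 2 curated starts. Among the 38 others, Krt222, a keratin-like gene at the outer edge of the chromosome 11 cluster, was the sole gene with H3K4me3. By layer, H3K4me3 was at the promoter of all 3 basal genes (Krt5, Krt14, Krt15), at 2 of 7 suprabasal, gland or duct genes (Krt79, found in follicle openings and sebaceous ducts, and Krt80, found in differentiating epithelia), at 2 of 4 follicle and stress genes (Krt16, Krt17) and not at Krt9 of palms and soles. No promoter of the 15 hair shaft genes, 8 inner root sheath and companion layer genes, 4 mucosal and corneal genes or 6 simple epithelial genes had H3K4me3 or H3K27ac. Wider windows added some of them: with 1 kb on either side of the TSS H3K4me3 was counted at Krt28 of the inner root sheath and at the simple epithelial Krt8, and with 2.5 kb H3K27ac at Krt27, Krt7 and the hair shaft genes Krt32 and Krt33a. H3K4me3 was at 0 of 15 hair shaft genes in either window. Over all genes the H3K4me3 shares were 62.7% with 1 kb and 64.1% with 2.5 kb, and that of H3K27ac with 2.5 kb was 53.5%. For the hair shaft genes 0 of 15 allows a share of up to 21.8%.

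Marked promoters differed in the shape of the peak. At the 5 genes Krt5, Krt14, Krt15, Krt17 and Krt79 the H3K4me3 peak was between 1844 and 2710 bp wide and extended mainly into the gene. Positions are given here relative to the TSS (for Krt14 the upstream of its 2 curated starts), with negative values upstream. The widest, of 2710 bp, ran from −359 to 2350 bp at Krt5 (chr15:101710555-101713264), with a fold enrichment of 3.51 at the summit. At Krt14 a peak of 2421 bp ran from −205 to 2215 bp (chr11:100205295-100207715, fold enrichment 3.98). Krt15, a keratin of basal cells and of follicle stem cells, had a peak of 2306 bp from −161 to 2144 bp (4.57). At Krt17 it ran from −255 to 1946 bp (5.0), and at Krt79 from −54 to 1789 bp (4.62). These peaks were wide and low. The 1697 other promoter peaks between 1844 and 2710 bp wide had a median fold enrichment of 6.19, and 14.7% of them were no higher than the highest of the 5 keratin peaks.

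The remaining 3 promoter peaks were narrow. Krt16, which pairs with Krt6 chains in stressed epidermis, had a peak of 548 bp (fold enrichment 6.78), Krt80 a peak of 426 bp (4.86) and Krt222 a peak of 577 bp (8.58). They fell within the range of other promoter peaks of 426 to 577 bp, whose fold enrichment had a median of 5.87 and a 10th to 90th percentile range of 3.36 to 10.4. Over all 8 keratin promoter peaks the median width was 2020 bp and the median fold enrichment 4.74, beside 1240 bp and 7.91 for the 12673 peaks at protein-coding promoters.

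**Figure D2:**
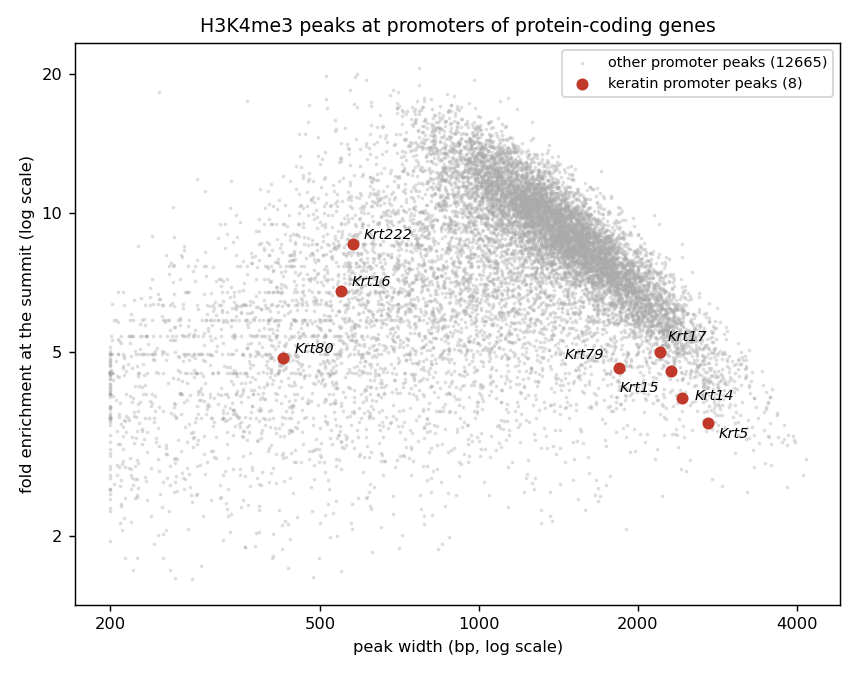
Width in bp (horizontal, log scale) and fold enrichment at the summit (vertical, log scale) of each H3K4me3 peak at the promoter of a protein-coding gene, with the 8 keratin peaks in red. Krt5, Krt14, Krt15, Krt17 and Krt79 lie at the wide and low end, and Krt16, Krt80 and Krt222 among the narrow peaks.

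H3K27ac at these genes lay on either side of the start. At Krt15 the H3K27ac peak ran from −1127 to 206 bp, at Krt16 from −548 to 180 bp, at Krt17 from −321 to 199 bp and at Krt80 from −479 to 114 bp, each crossing the TSS. At Krt14 it stopped short of the TSS: the promoter window held peaks from −680 to −87 bp (fold enrichment 2.28) and from −1523 to −974 bp (4.29), and 5 H3K27ac peaks lay within 10 kb, 1 of them downstream of the gene. Krt5 had no H3K27ac peak at the promoter and 4 within 10 kb, 3 of them upstream from −4642 to −1965 bp with fold enrichments of 2.38 to 2.67 and 1 downstream, from 6512 to 7073 bp. Downstream peaks were also found at Krt15 (6644 to 7053 bp) and in introns of Krt80 (4608 to 5792 bp and 6909 to 7247 bp). At Krt79 the sole H3K27ac peak within 10 kb lay downstream, in intron 4 (6843 to 7214 bp), and Krt222 had none in that distance. The basal partners shared a wide H3K4me3 peak over the start of the gene. They differed in H3K27ac at the promoter as defined here, but with 2.5 kb on either side of the TSS both had it.

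**Figure D3:**
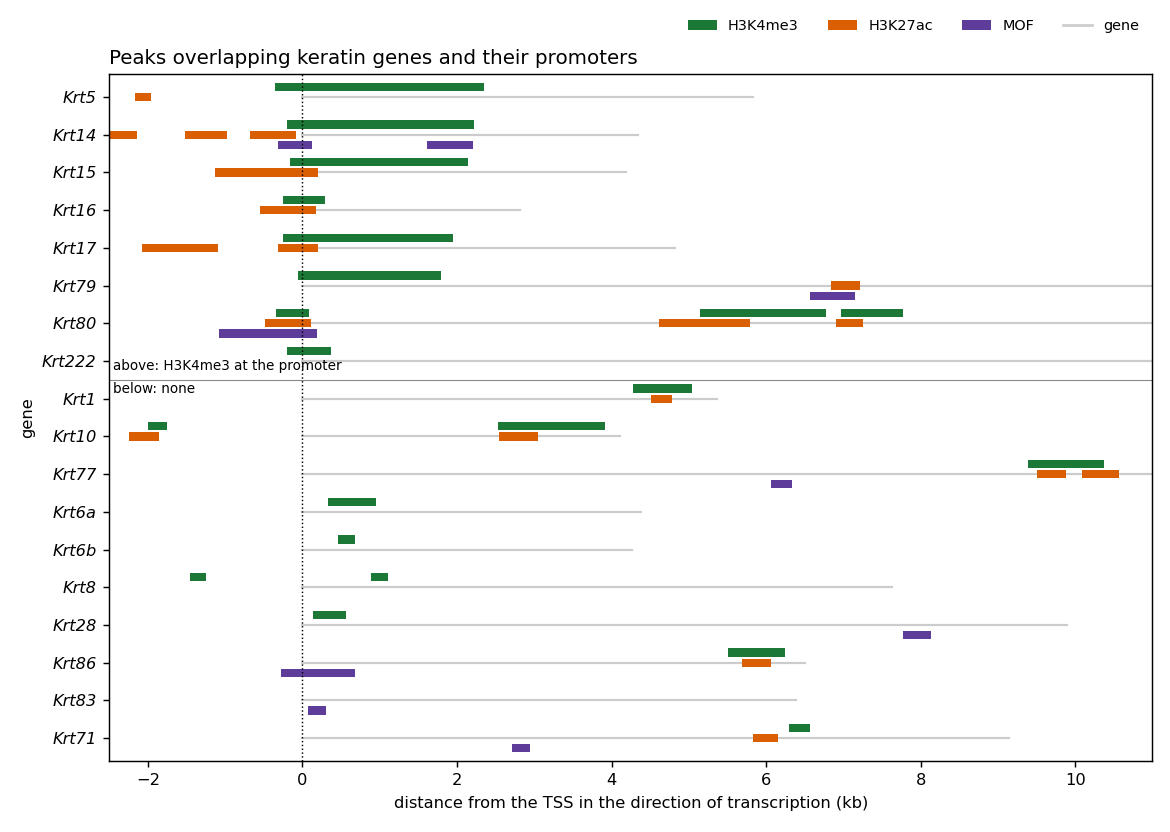
Peaks of H3K4me3 (green), H3K27ac (orange) and MOF (purple) along 18 keratin genes, drawn to scale by distance from the TSS in kb in the direction of transcription, with the gene as a grey line (Krt80 and Krt222 continue past the right edge). Above the dividing line are the 8 genes with H3K4me3 at the promoter, and below it 10 genes without, among them Krt1, Krt10, Krt77, Krt86 and Krt71 with H3K4me3 in the later part of the gene.

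The suprabasal partners had no promoter peak in any list. At Krt1, whose product makes up the filaments of spinous cells with that of Krt10, the nearest H3K4me3 peak began 4282 bp after the TSS and the nearest H3K27ac and MOF peaks were 3631 and 12581 bp away. At Krt10 the nearest H3K4me3 peak was 1751 bp upstream (254 bp wide, fold enrichment 4.23), overlapping an H3K27ac peak from −2248 to −1858 bp. Larger H3K4me3 peaks lay near the ends of these genes. In Krt1 a peak of 764 bp (chr15:101845741-101846504, fold enrichment 9.21) ran from 4282 to 5045 bp with its summit in the coding part of exon 9 of 9, and in Krt10 a peak of 1387 bp (chr11:99385453-99386839, fold enrichment 6.44) ran from 2525 to 3911 bp with its summit in intron 6. Both overlapped an H3K27ac peak. The 121 bases around the Krt1 summit (chr15:101846111-101846231, minus strand, 5′ to 3′, from RefSeq) are given because they lie in the exon that encodes the glycine-rich tail of the protein, with GGC triplets in capitals.
Krt1 summit: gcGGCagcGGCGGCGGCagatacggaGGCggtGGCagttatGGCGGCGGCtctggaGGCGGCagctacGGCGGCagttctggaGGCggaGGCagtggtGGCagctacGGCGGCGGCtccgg

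Other keratin genes showed the same placement. Krt77, a type II keratin of suprabasal cells and sweat ducts, had an H3K4me3 peak of 974 bp (fold enrichment 8.84) with its summit in the 3′ UTR in exon 9 of 9. Krt86, a hair cortex keratin, had a peak of 744 bp (10.3) in the coding part of exon 9, and Krt71 of the inner root sheath a peak of 274 bp (7.02) in exon 7. In all, H3K4me3 summits off the promoter and beyond the midpoint of the gene were found in 5 of 53 keratin genes (9.43%), which is close to the 9.77% of all protein-coding genes. For H3K27ac this was 8 genes (15.1%, all genes 12.4%) and for MOF 7 (13.2%, all genes 11.6%), so by this count keratin genes were close to all genes. The count takes any position beyond the midpoint and was not matched for gene length. Placement in the last exon was not compared with other genes.

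The stress keratins Krt6a and Krt6b, near-identical neighbours on chromosome 15, had no peak at the promoter as defined, but H3K4me3 began shortly after the TSS: from 328 to 947 bp at Krt6a (fold enrichment 9.01) and from 464 to 673 bp at Krt6b (4.97). These regions are repeated in the genome. Of the 31-base words of the Krt6a peak, 63.6% occur elsewhere in the assembly (290 words in Krt6b), and of those of the Krt6b peak 96.1% (129 in Krt5), so reads there may be shared between copies. By comparison, repeated words made up 11.5% of the Krt5 peak and 12.2% of the Krt14 peak (278 words in Krt16). For the Krt16 peak the share was 26.6% (138 words in Krt14). Over the keratin promoters the highest share was 28%, at Krt16, and the median 0.467%. The part of repeated sequence in the missing promoter peaks was not tested. Their partners Krt16 and Krt17 on chromosome 11 had both marks across the TSS.

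The simple epithelial partners Krt8 and Krt18, the keratins of the embryonic surface layer and of internal epithelia, had no promoter peak. Krt8 had narrow H3K4me3 peaks from −1451 to −1252 bp (fold enrichment 4.35) and from 886 to 1100 bp (3.54), whereas the nearest H3K4me3 peak to Krt18 was 22423 bp away. Extending the window to 1 kb downstream as well, 12 keratin genes had H3K4me3 (22.6%, 12.3 to 36.2%; all genes 62.7%), the added genes being Krt6a, Krt6b, Krt8 and Krt28 of the inner root sheath. In that window H3K27ac was counted at 5 genes (all genes 51.8%), MOF at 4 (28.6%) and Rfx2 at 0 (1.47%).

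MOF was found at 4 keratin promoters, and only some of them carried the marks. At Krt14 a MOF peak ran from −312 to 118 bp (chr11:100207392-100207822, score 516), inside the marked region, and a second MOF peak with a score of 950 lay in intron 2, from 1613 to 2212 bp, under the downstream end of the H3K4me3 peak. Relative to the downstream of the 2 curated Krt14 starts this second peak ran from 133 to 732 bp, outside the promoter window but within 1 kb of that start. At Krt80 the MOF peak ran from −1076 to 183 bp (chr15:101369979-101371238, score 561) over both marks. The hair shaft keratins Krt86 and Krt83 had MOF without H3K4me3 or H3K27ac at the promoter: from −271 to 682 bp at Krt86 (chr15:101473207-101474160, score 619) and from 73 to 298 bp at Krt83 (chr15:101491214-101491439, score 473). MOF without H3K4me3 at the promoter was seen at 3.77% of keratin genes (0.46 to 13%) and at 0.862% of all genes. Where the centre of the peak had to lie in the promoter, MOF was left at Krt14 and Krt80 (2 genes) and at neither Krt86 nor Krt83. With the 50% of MOF peaks of highest score the reverse was seen, Krt86 alone being left (1.89%; all genes 16.4%). Both regions share sequence with related genes: 30.3% of the 31-base words of the Krt86 peak are repeated (220 words in Krt81), and 48% of those of the Krt83 peak (82 in Krt86). The part of this in the peaks was not tested. Among genes with H3K4me3 at the promoter, MOF was present at 2 of 8 keratin genes (25%, 3.19 to 65.1%) and at 42.4% of all, so with 8 genes a difference was not detectable. H3K27ac was present at 5 of these 8 (62.5%, 24.5 to 91.5%), against 81% of all.

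Peaks within 10 kb of a TSS were closer to the genome at large. H3K4me3 lay within 10 kb of 23 of 53 keratin genes (43.4%, 29.8 to 57.7%; all genes 68.9%), H3K27ac of 29 (54.7%, 40.4 to 68.4%; all genes 59.4%) and MOF of 15 (28.3%, 16.8 to 42.3%; all genes 40.6%). Both marks lay within 10 kb of 18 keratin genes (34%, 21.5 to 48.3%; all genes 57.9%), and all 3 lists other than Rfx2 within 10 kb of 6 (11.3%, 4.27 to 23%; all genes 34.6%). No list had a peak within 10 kb of 14 genes (26.4%, 15.3 to 40.3%; all genes 26.7%): Krt20, Krt23, Krt25 and Krt36 on chromosome 11 and Krt2, Krt18, Krt72, Krt73, Krt76, Krt78, Krt82, Krt87, Krt88 and Krt90 on chromosome 15. For H3K27ac, for MOF and for the absence of peaks the interval held the share of all genes, while for H3K4me3 it lay below. That depended on the distance and the list. Within 5 kb the intervals for H3K27ac (16.8 to 42.3%; all genes 55.8%) and MOF (6.75 to 27.6%; all genes 33.8%) also lay below the share of all genes, and within 20 kb that for H3K27ac lay above it (65.9 to 89.2%; all genes 64.5%). With the 50% of peaks of highest significance (score for MOF) all 3 lay below. Neighbouring genes share peaks: the 15 genes near MOF rested on 13 distinct MOF peaks, the 23 near H3K4me3 on 25, and the 29 near H3K27ac on 48.

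By role, H3K4me3 lay within 10 kb of 13 of 15 epidermal genes (86.7%, 59.5 to 98.3%), an interval that held the 68.9% of all genes, and of 3 of 15 hair shaft genes (20%, 4.33 to 48.1%), whose interval lay below it. The epidermal genes without it were Krt2 and Krt78, both of the suprabasal layers, which had no peak of any list in that distance. H3K27ac was near 11 epidermal genes (73.3%, 44.9 to 92.2%; all genes 59.4%) and near 8 of the 15 hair shaft genes (53.3%, 26.6 to 78.7%), among them Krt31, Krt32 and Krt33a with H3K27ac inside the gene and no H3K4me3 there. MOF was near 7 of 15 hair shaft genes (46.7%, 21.3 to 73.4%) and near 4 of 15 epidermal genes (26.7%, 7.79 to 55.1%), and both intervals held the 40.6% of all genes. Of the 8 keratin genes with MOF but no H3K4me3 within 10 kb (15.1%, 6.75 to 27.6%; all genes 3.2%), 6 were hair shaft genes (Krt32, Krt35, Krt39, Krt40, Krt81 and Krt83), and the others were Krt26 of the inner root sheath and Krt4 of the oral mucosa. H3K4me3 was itself near fewer keratin genes (43.4%; all genes 68.9%), and the share with MOF among genes without it was not computed. These genes were not all separate sites: Krt32 and Krt35 shared a MOF peak, Krt81 was counted through that at the Krt86 promoter and Krt4 through a peak inside Krt79. Rfx2 was near none of the 53 (all genes 1.92%). The nearest Rfx2 peak was 349772 bp from a keratin TSS on chromosome 11 and 21595754 bp on chromosome 15.

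The clusters were then compared with each other. At the promoter, H3K4me3 was present at 5 of 27 genes on chromosome 11 (18.5%) and 3 of 26 on chromosome 15 (11.5%), a difference of −6.98 percentage points (95% interval −26.7 to 13.3). The direction turned with 1 kb on either side of the TSS, where 6 genes of each cluster had it (0.855 points, −21.2 to 23.1). For H3K27ac the shares were 14.8% and 3.85%, a difference of −11 points (−28.9 to 6.51). For MOF they were 3.7% (1 gene) and 11.5% (3 genes), a difference of 7.83 points (−8.58 to 25.5). Each interval held 0, so no difference between the clusters was detectable with these numbers of genes, and shifts of over 20 points for H3K4me3 remain within the interval. Within 10 kb the shares on chromosomes 11 and 15 were 48.1% and 38.5% for H3K4me3, 66.7% and 42.3% for H3K27ac and 25.9% and 30.8% for MOF. Genes with no peak of any list within 10 kb numbered 4 of 27 on chromosome 11 (14.8%, 4.19 to 33.7%) and 10 of 26 on chromosome 15 (38.5%, 20.2 to 59.4%), with overlapping intervals.

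**Figure D4:**
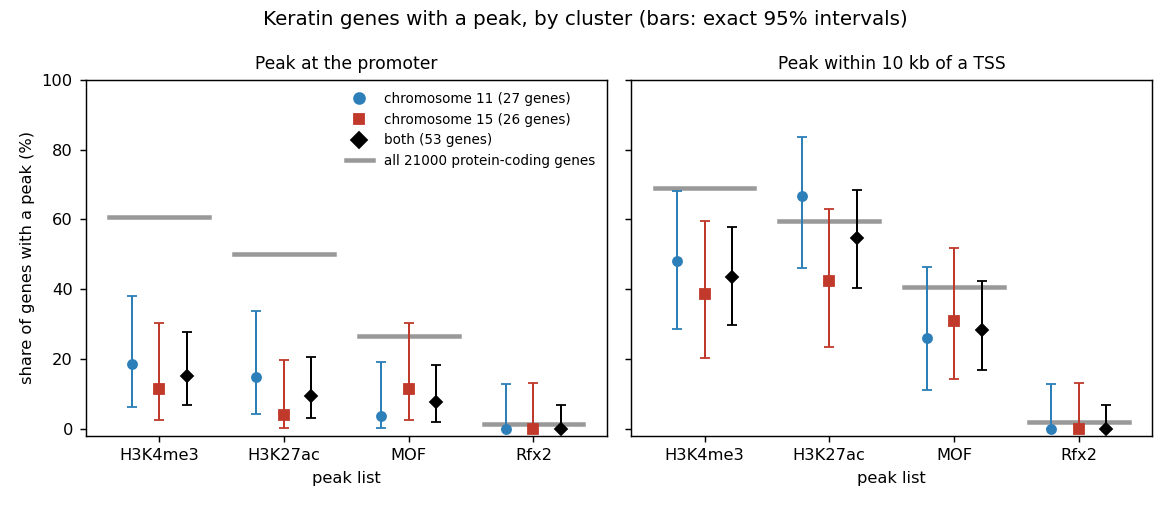
Share of keratin genes (%) with a peak at the promoter (left) and within 10 kb of a TSS (right) for each peak list, with exact 95% intervals as bars, for chromosome 11, chromosome 15 and both. Grey lines give the share over all 21000 protein-coding genes, which at the promoter lies above the intervals of both clusters for H3K4me3 and H3K27ac.

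Counted by length over the whole lists of H3K4me3, H3K27ac and MOF, both clusters held more peaks than the genome average. That average was not matched for gene density. Rfx2 peaks numbered 0 in both clusters, against 0.0125 per 100 kb over the genome. H3K4me3 peaks numbered 1.74 per 100 kb on chromosome 11 (exact Poisson interval 1.03 to 2.74) and 2.49 on chromosome 15 (1.45 to 3.98), against 1.02 over chromosomes 1 to 19 and X. H3K27ac peaks numbered 3.18 (2.19 to 4.47) and 4.53 (3.08 to 6.44), against 1.17. MOF peaks numbered 2.12 (1.33 to 3.21) and 1.76 (0.907 to 3.07), against 0.664. For H3K4me3 on chromosome 11 the interval only just cleared the genome value, over a span that includes the Krtap genes. Over runs of keratin genes without gaps over 50 kb, H3K4me3 peaks numbered 2.81 (1.61 to 4.56) on chromosome 11 and 2.92 on chromosome 15, H3K27ac peaks 5.45 and 5.16, and MOF peaks 2.46 and 2.06. With the 50% of peaks of highest significance (score for MOF) the counts were small and the intervals wide. H3K4me3 then numbered 0.386 per 100 kb on chromosome 11 (4 peaks, 0.105 to 0.987) and 0.731 on chromosome 15 (0.237 to 1.71), against 0.513 over the genome. H3K27ac numbered 1.06 (0.529 to 1.9) and 1.17 (0.505 to 2.31), against 0.583, and MOF 0.771 (0.333 to 1.52) and 0.878 (0.322 to 1.91), against 0.332. All these intervals held the genome value except that of MOF on chromosome 11, whose lower bound lay at it. The fold over the genome went from 1.71 to 0.752 for H3K4me3 on chromosome 11 and from 2.44 to 1.42 on chromosome 15, and for H3K27ac from 2.72 to 1.82 and from 3.87 to 2.01. For MOF it went from 3.19 to 2.32 on chromosome 11 and was 2.65 and 2.64 on chromosome 15. The chromosome 15 to chromosome 11 ratio was 1.43 for H3K4me3 (0.694 to 2.95), 1.43 for H3K27ac (0.844 to 2.4) and 0.827 for MOF (0.373 to 1.75), each interval holding 1. Over the runs of keratin genes it was 1.04 for H3K4me3 and turned to 0.947 for H3K27ac, and for MOF it turned to 1.04 with 50 kb added on either side and to 1.14 with the 50% of peaks of highest score.

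Most of these peaks lay away from keratin promoters. Of the 34 MOF peaks in the clusters, 4 were at a keratin promoter and 23 overlapped neither mark (67.6%, 49.5 to 82.6%), beside 54.5% of the whole MOF list. Of the 64 H3K27ac peaks, 35 overlapped neither H3K4me3 nor MOF (54.7%, 41.7 to 67.2%), beside 39.1% of the whole list. Of the 35 H3K4me3 peaks, 11 overlapped neither other list (31.4%, 16.9 to 49.3%), beside 30.7%. The widest H3K4me3 peak in the clusters was at none of the keratin starts. It covered 2951 bp between Krt71 and Krt72 (chr15:101769970-101772920, fold enrichment 4.94), overlapped a MOF peak of 2665 bp (score 734) and 3 H3K27ac peaks, and lay 13600 bp from the nearest keratin TSS, that of Krt72. Another site with all 3 lists, on chromosome 15, had a MOF peak with a score of 754 and an H3K4me3 peak of 522 bp (fold enrichment 6.79), 19784 bp downstream of the Krt8 TSS.

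Promoter sequence was compared over 300 bases, from 250 before the 5′-most curated TSS. Keratin promoters were poorer in CpG than the average promoter, but not than promoters without H3K4me3. The observed to expected CpG ratio had a median of 0.28 (range 0.0593 to 0.782), against 0.595 over all protein-coding genes and 0.774 over all those with H3K4me3 at the promoter. Over the 45 keratin genes without H3K4me3 there the median was 0.28, and over all 8265 such genes it was 0.204. A ratio over 0.6 was found at 4 of 53 keratin promoters (7.55%), at 49.6% of all and at 75.4% of all with H3K4me3. Among genes without H3K4me3 it was found at 8.89% of keratin promoters and 9.79% of all. The 8 keratin promoters with H3K4me3 did not stand apart from the rest: their median was 0.271 and 0 of 8 exceeded 0.6. The median ratio was 0.285 on chromosome 11 and 0.274 on chromosome 15.

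TATA boxes were frequent. TATAAA on the coding strand with its first base 40 to 20 bases before the TSS was found at 18 of 53 keratin promoters (34%, 21.5 to 48.3%), against 2.85% of all protein-coding genes and 1.12% of all with H3K4me3 at the promoter. Among genes without H3K4me3 there it was found at 16 of 45 keratin promoters (35.6%, 21.9 to 51.2%) and at 5.53% of all. It was found at 13 of 27 genes on chromosome 11 (48.1%, 28.7 to 68.1%) and 5 of 26 on chromosome 15 (19.2%, 6.55 to 39.4%). Inner root sheath and companion layer genes had it in 5 of 8, hair shaft genes in 7 of 15, and epidermal genes in 3 of 15 (Krt10, Krt14 and Krt17). On either strand anywhere in the 300 bases TATAAA was in 50.9% of keratin promoters (all genes 13%). The other motifs, also searched on both strands, were TGANTCA (AP-1, 7.55%; all genes 6.84%), GCCNNNGGC (AP-2, 22.6%; 20%), CACGTG (E-box, 7.55%; 8.09%) and GGGCGG (Sp1, 15.1%; 47.9%), and 2 pairs of matches overlapped each other in keratin promoters. Among genes without H3K4me3 at the promoter, GGGCGG was in 11.1% of keratin promoters and 17.5% of all. A match is a description of the sequence and not a bound site.

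**Figure D5:**
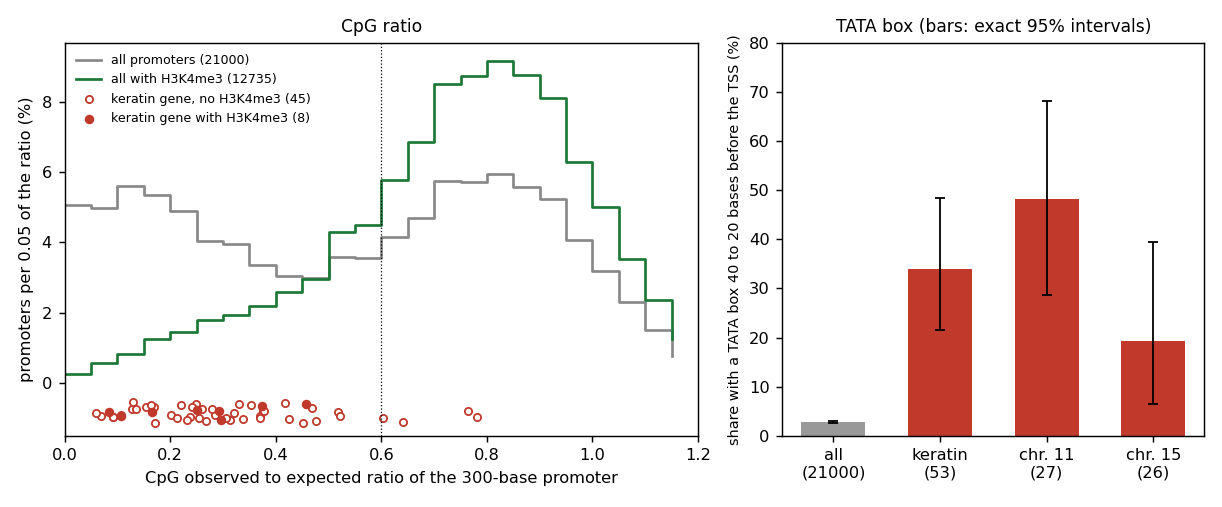
Left, distribution of the CpG observed to expected ratio of 300-base promoters (per cent of promoters in steps of 0.05) over all protein-coding genes (grey) and those with H3K4me3 (green), with each keratin gene as a point below the curves (filled with H3K4me3, open without, vertical scatter for legibility). Right, share of promoters (%) with TATAAA 40 to 20 bases before the TSS with exact 95% intervals: 2.85% of all genes, 34% of keratin genes, 48.1% on chromosome 11 and 19.2% on chromosome 15.

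As a check of the labelled tissue, 4 of 5 keratinocyte genes that are no members (Trp63, Dsp, Dsg3 and Perp, not Itga6) had H3K4me3 at the promoter and 4 had H3K27ac (all but Trp63). The shares over all genes were 60.6% and 50%, so with 5 genes this check is weak. Of 16 genes that define other cell types, 5 had H3K4me3 (Pmel and Mlana of melanocytes, Pdgfra of fibroblasts, Snap25 and Syt1 of neurons) and 1 had H3K27ac (Pmel). The lists held 27039 H3K4me3, 30736 H3K27ac, 17546 MOF and 337 Rfx2 peaks. They hold no read counts, so depth could not be computed from them, and read totals given by the study were not used here. Among the neighbours in the spans, H3K4me3 was at the promoter of 1 of 23 Krtap genes (4.35%, 0.11 to 21.9%; all genes 60.6%). H3K27ac was at 0 of these promoters (0 to 14.8%; all genes 50%) and MOF at 1 (all genes 26.6%). Within 10 kb, MOF lay near 11 Krtap genes (47.8%, 26.8 to 69.4%), an interval that holds the 40.6% of all genes, and H3K4me3 and H3K27ac near 3 each (13%, 2.78 to 33.6%; all genes 68.9% and 59.4%). Of the 14 other protein-coding genes in the chromosome 11 span, MOF was near 3 (21.4%, 4.66 to 50.8%) and H3K4me3 and H3K27ac near 0.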

How the data were processed

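Reads were aligned and peaks called by the authors, with Bowtie2 (very sensitive, local) against mm10 and MACS2 for each library. MOF reads were single-end and Cut&Run reads paired-end, and a control library was not stated. The deposited Rfx2, H3K4me3 and H3K27ac lists hold, for each peak, its position, summit, score, fold enrichment (a ratio over the local background of the library) and the −log10 of the p-value and of the q-value. The deposited MOF list holds regions with a score of unstated scale and no fold enrichment, and it holds more regions than the study counts, and may be a different call. Heights were therefore not compared between lists.

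Peaks were matched to TSSs of curated RefSeq transcripts (GRCm38.p6) by an overlap of at least 1 bp with the promoter (1 kb upstream to 100 bp downstream) or with 10 kb on either side, using Python (3.11.15), numpy (2.4.6), pandas (2.3.3) and scipy (1.17.1). Intervals are exact (Clopper-Pearson or Poisson) at 95%, and Newcombe's for differences of shares. With 1 list per antibody no test between replicates was possible and no p-value was computed. Every member was counted, and those named with values have a promoter peak, are expression partners, or lie near a peak. Other loci named with values were chosen after their values were seen. Members, roles and lists were chosen with earlier results of these data known. Overlap calls were tested on simulated data: 0 of 10000 windows differed from bedtools (2.31.1), with 40000 simulated peaks. Of the 53 genes, 36 matched the RefSeq promoter table, so promoter sequences were read from the RefSeq genome. Krt74 and Krt8-ps are annotated as pseudogenes and fell outside the rule. Other libraries in the labels (H4K16Ac, H3K4me1, and the other libraries of H3K4me3 and H3K27Ac) were not used here.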

Additional observations from a re-analysis of the deposited data

How the results depend on the processing

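Of 59 values recomputed under alternatives, 45 stayed within the interval of the main value without a change of direction, 10 moved out of it and 4 changed direction. The 45 include the Rfx2 shares, which could not leave 0 because the nearest Rfx2 peak was 349772 bp from a keratin TSS. They also include shares at the promoter that fell from 8 to 4 genes (H3K4me3) and from 4 to 2 (MOF). A narrower or wider distance moved the shares within 10 kb by construction: with 5 kb to 26.4% for H3K4me3, 28.3% for H3K27ac and 15.1% for MOF (all genes 66%, 55.8% and 33.8%), and with 20 kb to 79.2% for H3K27ac and 54.7% for MOF (all genes 64.5% and 51.3%). Keeping the 50% of peaks with the highest significance (score for MOF) gave 18.9%, 20.8% and 9.43% within 10 kb (all genes 58.7%, 49.9% and 24.2%), and 1.89% for MOF at the promoter (all genes 16.4%), where Krt86 alone was left. It also gave H3K4me3 at 4 promoters (7.55%; all genes 51.3%). H3K27ac at the promoter rose to 20.8% with 2.5 kb on either side (all genes 53.5%), the added genes being Krt5, Krt7, Krt10, Krt27, Krt32 and Krt33a. Where the centre of the peak had to lie in the window, H3K4me3 was counted at 4 genes (7.55%; all genes 27.3%) and not at Krt5, Krt15, Krt17 and Krt79, whose peaks extend into the gene. The Krt14 peak also extends into the gene and was counted only through the downstream of its 2 curated starts. By the same rule MOF was counted at 2 genes (3.77%; all genes 16.4%) and not at Krt83 and Krt86, which left 0 keratin promoters with MOF and without H3K4me3. Comparisons of the clusters turned in 4 cases, each with an interval that held no difference: H3K4me3 at the promoter to 0.855 points with 1 kb on either side, the H3K27ac density ratio to 0.947 over runs of keratin genes without gaps over 50 kb, and the MOF density ratio to 1.04 with 50 kb added and to 1.14 with the top 50% of peaks. The cause of the last was not tested. Counting only the inner stretches of MOF regions, an alternative chosen after seeing the data, left MOF at 4 promoters. Rfx2 was at 0 keratin promoters under every alternative run. No paired analysis was possible because the lists carry no replicates.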
